A study of Homo sapiens with 6 samples.

Results

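The nuclear genes that encode the structural subunits of the mitochondrial respiratory chain and ATP synthase were followed in AC16 cells exposed to doxorubicin. Members were the protein-coding genes whose symbol begins with NDUFA, NDUFB, NDUFC, NDUFS, NDUFV, UQCR or ATP5, together with SDHA to SDHD, CYC1 and the COX4I1 to COX8A subunits. Assembly factors named NDUFAF were left out. The rule uses names and gene type and no expression value, but it was chosen with earlier results of these data known. The rule found 90 genes among 58299 genes in the count table, of which 19850 are protein-coding. By complex these were 40 genes of complex I, 4 of complex II, 10 of complex III, 16 of complex IV and 20 of complex V. NDUFA4 is now known as a subunit of complex IV and was counted with complex I by its prefix, as was its paralog NDUFA4L2. The members lie on 21 autosomes and the X chromosome, most often on chromosome 19, with 12 genes.

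AC16 is a human line made by fusing adult ventricular heart cells with a transformed human fibroblast line, so that it derives only in part from cardiomyocytes. Cells of this line, at passages 3 to 10 in medium with glucose and pyruvate, received 0.1% DMSO alone or 100 nM doxorubicin, and both groups were harvested at 48 h. Doxorubicin is an anthracycline used against cancer that poisons type II topoisomerases and is known for toxicity to the heart. Each group had 3 libraries of poly(A)-selected RNA, prepared without strand information. Nothing in the labels says that replicates were independent cultures. The p-values therefore set the difference between groups only against the spread among these libraries, a spread that may be technical.

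The respiratory chain sits in the inner mitochondrial membrane and passes electrons from nutrients to oxygen while pumping protons. Complex I takes electrons from NADH and complex II from succinate, both hand them to ubiquinone, complex III moves them on to cytochrome c, and complex IV gives them to oxygen. Complex V, the ATP synthase, lets the protons flow back through a rotating ring and uses that motion to make ATP. Heart muscle is known for its dense mitochondria and high demand for ATP. Most subunits are encoded in the nucleus and imported, and the remainder come from the mitochondrial genome, whose genes were not analysed here.

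Library totals ran from 17252862 to 19571731 counts. The 12 cardiomyocyte marker genes, among them MYH6, MYH7, TNNT2 and NPPA, were near 0. None of them passed the filter on low counts. Their summed level was 0.312 to 0.391 counts-per-million (CPM) in the DMSO libraries and 1.11 to 1.99 CPM in the doxorubicin libraries. For CPM, each count was divided by the library's total over genes passing the filter, scaled by the trimmed mean of M values (TMM). All 10 fibroblast markers were detected, summing to 25291 to 27522 CPM with DMSO and 14524 to 18566 CPM with doxorubicin, and 6 of the 10 fell. Of 6 smooth muscle markers, 4 rose, and the sum went from 759 to 1001 CPM up to 1467 to 1496 CPM. Endothelial markers summed to 15.1 to 17 CPM against 10.3 to 12.2 CPM, with 1 higher and 1 lower of 5 tested. Leukocyte markers summed to 3.86 to 4.69 CPM against 4.17 to 4.59 CPM, with 1 lower of 3 tested. The part of these shifts in the results for the respiratory chain was not tested.

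Doxorubicin moved the subunit genes in both directions and mostly by small amounts. Of the 90 members, 81 passed the filter and were tested. A gene is said to have risen or fallen where its adjusted p was under 0.05 in edgeR's quasi-likelihood test, adjusted over all 15358 tested genes. By this criterion 16 members rose and 20 fell, and 45 did not pass. Without doxorubicin replicate 3, 9 rose and 23 fell, beside 30.7% higher and 28.7% lower among all genes then tested. With all 6 libraries, that is 19.8% higher and 24.7% lower, beside 32.7% higher and 32% lower among all tested genes, so 44.4% of the tested members passed against 64.7% of all tested genes. The median log2 fold change was -0.02 over the tested members and 0.00 over all tested genes. The median absolute log2 fold change was 0.18 over members and 0.46 over all tested genes. Only NDUFV3 and NDUFA13 changed by 2-fold or more, as did 20.6% of all tested genes, and 8 members changed by at least 1.5-fold. Tested against a change of 1.2-fold instead of 0 (edgeR's glmTreat), 8 members were higher and 7 lower, beside 25.5% and 22.5% of all tested genes. In bulk RNA, a change in the mix of cells and a change in RNA per cell cannot be told apart.

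The members are more abundant than most genes, with a median mean level of 6.11 log2 CPM against 4.44 for all tested genes. Protein-coding genes of similar level, between 5.18 and 6.55 log2 CPM, numbered 3311 without the members. Of those, 73.2% passed the test, with a median absolute log2 fold change of 0.37. The doxorubicin values lay wholly above the DMSO values for 18 tested members and wholly below for 20, while 34.8% and 34.3% of all tested genes did so (69.1% in either direction). NDUFB6, NDUFC2, SDHB, SDHC, ATP5MF and ATP5MG had separate groups without passing the test. NDUFB7, CYC1, UQCR10 and UQCRHL passed although their groups overlapped. These 10 genes were picked out after their values were seen.

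**Figure D1:**
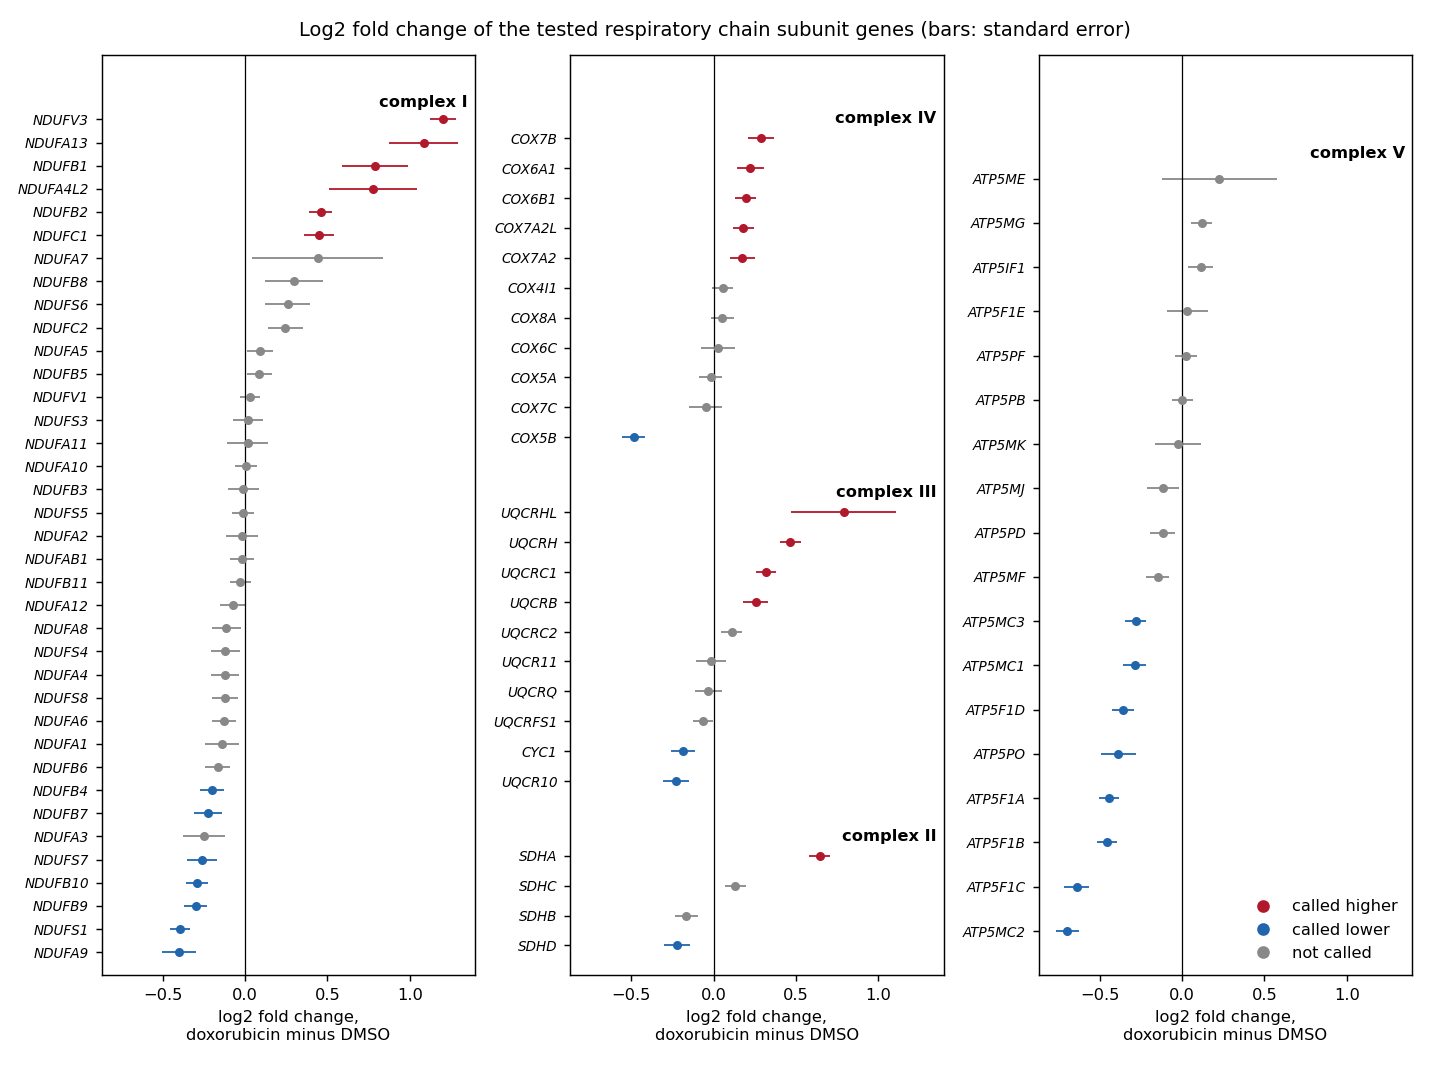
Log2 fold change of doxorubicin against DMSO for the tested members reported by name, grouped by complex I to V, with bars of 1 standard error; colours separate members that rose, fell or did not pass. NDUFV3 lies at 1.2 at the top of complex I, and in complex V the 8 members that passed all lie below 0.

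In complex I, core subunits that carry electrons from NADH to ubiquinone were lower or did not pass the test, and the accessory subunits around them moved in both directions. NDUFS1 (chr2:206114817-206159603, GRCh38), the large subunit that holds iron-sulfur clusters of the NADH module, read 151, 154 and 141 CPM in DMSO replicates 1 to 3 and 114, 116 and 109 CPM in doxorubicin replicates 1 to 3. All 3 doxorubicin values were below all DMSO values. As for the markers, CPM values here and below are scaled by TMM. The mean went from 148 ± 6.67 to 113 ± 3.91 CPM (SD, n = 3 each), 1.32-fold lower, with a log2 fold change of -0.40 ± 0.06 (standard error, SE) and an adjusted p of 3.6e-05. NDUFS7, which carries the last iron-sulfur cluster before ubiquinone, read 25.8, 25.0 and 29.4 CPM against 23.6, 20.9 and 22.5 CPM. Its log2 fold change was -0.26 ± 0.09 (adjusted p = 0.022), and 49.1% of its exon bases lie in other annotated genes. The NDUFS7 call was lost without DMSO replicate 3 (adjusted p = 0.103), without doxorubicin replicate 2 (0.0938) and without doxorubicin replicate 3 (0.0631). It was also lost with DESeq2, another test of counts (0.0583).

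NDUFV1, NDUFS3 and NDUFS8 of the core held values that overlapped between the groups. NDUFV1, the subunit that binds NADH and the flavin, read 123, 128 and 134 CPM with DMSO and 127, 129 and 138 CPM with doxorubicin. NDUFS3, at the joint of the core, read 35.7, 37.3 and 42.0 CPM against 36.5, 36.4 and 43.6 CPM. NDUFS8, with iron-sulfur clusters near the quinone site, read 87.8, 90.7 and 102 CPM against 79.2, 85.0 and 93.7 CPM. Their log2 fold changes were 0.03, 0.02 and -0.12, with adjusted p-values of 0.69, 0.87 and 0.18. The partner of NDUFV1, NDUFV2, was too low in the table to be tested and is taken up with the other untested members.

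The accessory subunits around the core of complex I included the member with the largest rise. NDUFV3 (chr21:42879644-42913304), a small subunit attached near the NADH-oxidising tip, read 30.1, 33.0 and 35.1 CPM with DMSO and 79.5, 75.6 and 70.8 CPM with doxorubicin. Every doxorubicin value was more than any DMSO value. The mean rose from 32.7 ± 2.51 to 75.3 ± 4.36 CPM (SD, n = 3 each), 2.3-fold, with a log2 fold change of 1.2 ± 0.08 (SE) and an adjusted p of 1.2e-09. Counts of NDUFV3 per count of NDUFV1 in the same library were 0.245, 0.257 and 0.262 with DMSO and 0.624, 0.588 and 0.515 with doxorubicin. Ratios of 2 members here and below were chosen after the values were seen and carry no test. NDUFA9, which helps hold the 2 arms of the complex together, read 22.4, 21.6 and 24.9 CPM against 15.3, 17.5 and 19.3 CPM. It was lower in every doxorubicin library (log2 fold change -0.40 ± 0.10, adjusted p = 0.003). The other 7 accessory members of the NADH and ubiquinone modules did not pass: NDUFS4, NDUFS6, NDUFA2, NDUFA5, NDUFA6, NDUFA7 and NDUFA12. NDUFS6 passed upward without doxorubicin replicate 2 (log2 fold change 0.39, adjusted p = 0.00886), with the replicate number as a block (0.25, 0.0189) and without a filter on low counts (0.23, 0.0245).

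The stretch upstream of NDUFV3 is shown because this gene had the largest rise of any tested member. It is taken from RefSeq on GRCh38.p14, chr21:42893059-42893264 on the plus strand, and ends 44 bases before the RefSeq start used. That start lies inside the span the count table gives for the gene. Capitals mark a GC box, GGGCGG or its reverse complement.
NDUFV3: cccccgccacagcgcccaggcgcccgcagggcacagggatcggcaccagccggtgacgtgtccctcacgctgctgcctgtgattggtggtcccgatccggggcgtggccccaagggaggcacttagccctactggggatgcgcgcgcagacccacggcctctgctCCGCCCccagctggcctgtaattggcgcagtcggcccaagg

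The membrane arm of complex I was mixed. In its proximal section, next to the quinone site, 2 of 9 members rose (22.2%) and 0 fell. Among all tested genes 32.7% rose and 32% fell. NDUFA13 (chr19:19515736-19529054), also known as a regulator of cell death, was low, at 2.12, 2.13 and 1.82 CPM with DMSO and 3.35, 4.91 and 4.64 CPM with doxorubicin. The groups were separate, and the log2 fold change was 1.08 ± 0.21, or 2.12-fold, with an adjusted p of 0.00027. For NDUFA13, 21.0% of exon bases lie in other genes, the largest being a same-strand gene that itself holds 249 counts over all libraries beside 347 for NDUFA13. NDUFC1, a small membrane subunit, read 23.8, 23.5 and 21.5 CPM against 28.6, 32.1 and 33.2 CPM. It was higher in all 3 doxorubicin libraries (log2 fold change 0.45 ± 0.09, adjusted p = 0.00032), with 18.5% of its exon bases shared with MGARP on the same strand. NDUFC2 did not pass (log2 fold change 0.24, adjusted p = 0.056), but passed upward with RLE size factors (0.045), upper-quartile scaling (0.0427), library totals (0.0285), a filter of 1 CPM in 3 libraries (0.0421) and without doxorubicin replicate 1 (0.0241). The remaining 6 proximal members did not pass. Of these, NDUFA1 (log2 fold change -0.28, adjusted p = 0.0195) and NDUFA3 (-0.34, 0.0491) passed downward without doxorubicin replicate 3, and NDUFA3 without a filter on low counts (0.0471).

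In the distal section of the membrane arm, 2 of 11 members rose (18.2%) and 4 fell (36.4%), beside 32.7% and 32% of all tested genes. NDUFB1 read 10.3, 11.9 and 10.1 CPM with DMSO and 14.5, 16 and 25.3 CPM with doxorubicin. Its doxorubicin values were all higher, with replicate 3 well above the other two (log2 fold change 0.79 ± 0.20, adjusted p = 0.0061). NDUFB2 read 55.4, 59.8 and 61.6 CPM against 83.9, 75.8 and 83.6 CPM, with separate groups and a log2 fold change of 0.46 ± 0.07 (adjusted p = 2.7e-05). BRAF on the opposite strand covers 27.9% of the NDUFB2 exon bases, and reads without strand cannot be assigned to one or the other. NDUFB9 (74.3, 74.5 and 78.9 against 59.3, 59.5 and 66.0 CPM) and NDUFB10 (77.1, 77.4 and 78.6 against 60.2, 63.9 and 66.4 CPM) fell by 0.30 and 0.29 on the log2 scale. Both had separate groups and adjusted p-values of 0.0011 and 0.00099. NDUFB10 carries cysteine pairs that face the intermembrane space, and NDUFB9 belongs to the LYR protein family that binds acyl carrier protein.

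NDUFB4 and NDUFB7, also of the distal arm, fell by 0.20 and 0.22 on the log2 scale. NDUFB4 read 51.6, 50.5 and 48.6 CPM against 41.8, 43.3 and 45.9 CPM, with groups apart (adjusted p = 0.022). NDUFB7 read 54.5, 55.1 and 60.2 CPM against 43.0, 47.5 and 54.9 CPM, with the last doxorubicin value inside the DMSO range (adjusted p = 0.032). The NDUFB4 call was lost without DMSO replicate 1 or 2 (adjusted p = 0.0542 and 0.0556) and without doxorubicin replicate 1 or 2 (0.0595 and 0.06). It was also lost with library totals (0.0647). The NDUFB7 call was lost without DMSO replicate 3 (0.105) and without doxorubicin replicate 1 or 2 (0.131 and 0.087). It was also lost with library totals (0.066) and with DESeq2 (0.0528). NDUFB3, NDUFB5, NDUFB6, NDUFB8 and NDUFB11 did not pass, though NDUFB6 passed downward without doxorubicin replicate 3 (adjusted p = 0.0283) and NDUFB8 upward without doxorubicin replicate 1 (0.00677). NDUFAB1, the acyl carrier protein of the complex, did not pass either.

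Over the whole of complex I, 6 of 38 tested members rose (15.8%) and 8 fell (21.1%), beside 32.7% and 32% of all tested genes. The median log2 fold change was -0.02. NDUFA4 and NDUFA4L2 stood apart in level. NDUFA4 read 80.1, 88.3 and 91.4 CPM with DMSO and 70.6, 78.0 and 90.3 CPM with doxorubicin, overlapping (log2 fold change -0.12, adjusted p = 0.23). NDUFA4L2, a paralog known to be induced by hypoxia, read 0.894, 1.61 and 1.71 CPM against 2.10, 2.48 and 2.69 CPM. Its groups did not overlap, and the log2 fold change was 0.78 ± 0.27 (adjusted p = 0.018). The NDUFA4L2 call was lost without DMSO replicate 1 (adjusted p = 0.0903) and without doxorubicin replicate 3 (0.0626), while NDUFA4 passed downward without doxorubicin replicate 3 (0.042). With DESeq2 the NDUFA4L2 call was also lost (0.0849). Without doxorubicin replicate 2, 5 members of complex I fell. Without the members that share over 10% of their exon bases with other genes, 3 members of complex I rose and 5 fell, out of fewer tested members. Shares of the members under these settings, and of all genes without doxorubicin replicate 2, were not computed. These counts are therefore not comparable with the percentages above.

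**Figure D2:**
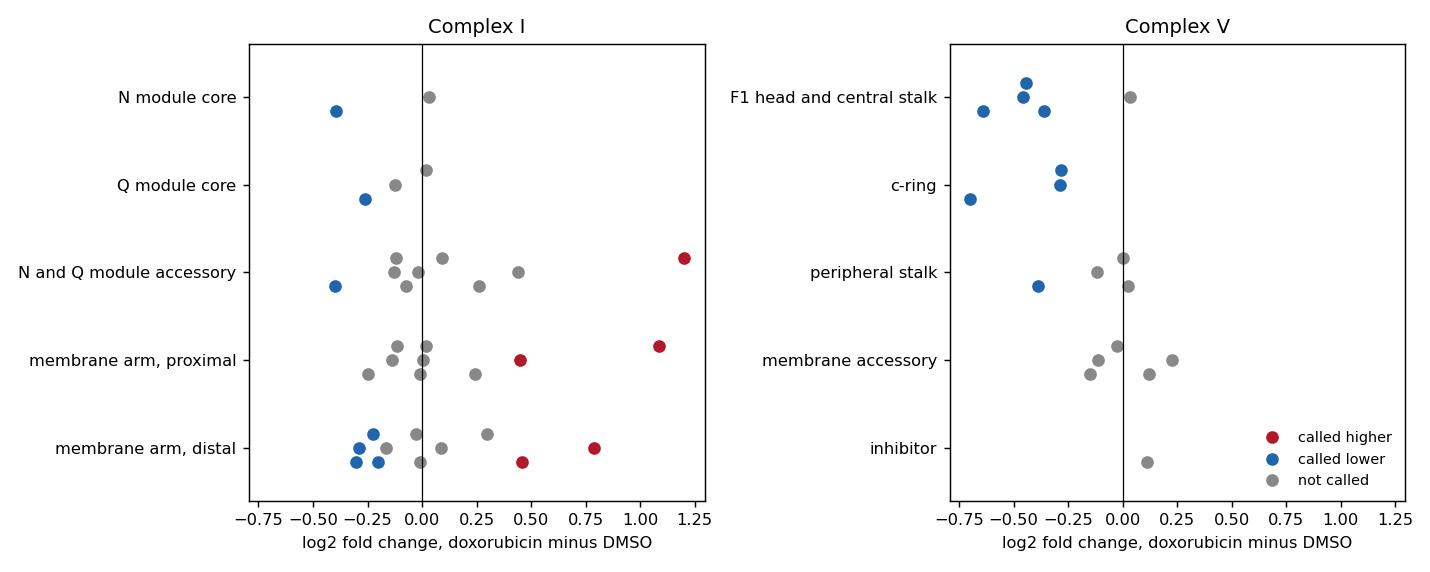
Log2 fold change of doxorubicin against DMSO (horizontal axis) of the tested members of complexes I and V reported by name, by structural part (rows). NDUFA4, NDUFA4L2 and NDUFAB1 of complex I are not drawn. Each point is a gene, coloured by whether it rose, fell or did not pass. The 4 F1 members that fell and the 3 c-ring members sit together below 0, while the peripheral stalk holds 1 member that fell and the membrane accessory subunits of complex V none.

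Complex II, which also serves the citric acid cycle, had its catalytic subunit higher and an anchor subunit lower. SDHA (chr5:218241-256700), the flavoprotein that oxidises succinate, read 136, 132 and 136 CPM with DMSO and 223, 197 and 211 CPM with doxorubicin. The groups were far apart relative to their spread. The mean rose from 135 ± 2.32 to 210 ± 12.9 CPM (SD, n = 3 each), 1.56-fold, with a log2 fold change of 0.64 ± 0.06 and an adjusted p of 1.9e-07. SDHB, the iron-sulfur partner that receives electrons from SDHA, read 78.6, 78.9 and 80.1 CPM against 64.3, 71.4 and 76.2 CPM. Although every doxorubicin value was lower, SDHB did not pass (log2 fold change -0.17 ± 0.07, adjusted p = 0.052), and it passed without doxorubicin replicate 3 (0.0287) and without a filter on low counts (0.0313). SDHC, a membrane anchor, read 122, 113 and 115 CPM against 126, 125 and 133 CPM and did not pass (log2 fold change 0.13, adjusted p = 0.075). SDHC passed upward with library totals (0.0262), upper-quartile scaling (0.0457) and a filter of 1 CPM in 3 libraries (0.0485). SDHD, the other anchor, read 42.0, 37.3 and 37.1 CPM against 33.8, 33.8 and 32.1 CPM. All its doxorubicin values were lower, with a log2 fold change of -0.22 ± 0.08 and an adjusted p of 0.022. The SDHD call was lost without DMSO replicate 1 (adjusted p = 0.0936) and without doxorubicin replicate 3 (0.103). It was also lost with library totals (0.0676) and with DESeq2 (0.0539).

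SDHA and SDHB join in equal number in the complex, and SDHA counts rose relative to SDHB counts. Per SDHB count there were 1.73, 1.67 and 1.70 SDHA counts with DMSO and 3.47, 2.76 and 2.77 with doxorubicin. These counts are not divided by exon length, 8383 bases for SDHA and 2462 for SDHB, so the ratio does not measure their proportion. Per length, as given further below, SDHA lay below SDHB with DMSO and nearer to it with doxorubicin. SDHA has near-identical pseudogenes, between which reads could be split. SDHAP1 held 236, 220 and 278 counts against 264, 300 and 307, and SDHAP4 held 272, 268 and 300 against 174, 233 and 189. SDHA itself held 2437, 2535 and 2460 counts against 3924, 3737 and 3772. The part of reads shared with these copies in the SDHA result was not tested.

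The promoter of SDHA is shown for a repeat within it. NRF1 is a transcription factor known for binding promoters of respiratory chain genes, and its motif was searched on both strands as GCGCA, any base, then GCGC. In the RefSeq window of 300 bases around the SDHA start (250 before and 50 after), 4 matches were found. They lie 166, 117, 68 and 19 bases before the start, that is, 49 bases apart each time. Among 15450 windows of tested protein-coding genes, 9 held 4 or more matches. The sites are on the plus strand of GRCh38.p14, from chr5:218149-218168 to chr5:218296-218315, with the match in capitals and 5 bases on each side.
SDHA site 1: gctttGCGCAGGCGCggcgc
SDHA site 2: atggtGCGCAGGCGCgatgt
SDHA site 3: gtggtGCGCAGGCGCggtat
SDHA site 4: gtggtGCGCAGGCGCagtct
All 4 matches read the same 10 bases. A match of letters is a description and does not show that the factor binds there.

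Complex III had 4 members that rose (40%) and 2 that fell (20%) among 10 tested, beside 32.7% and 32% of all tested genes. The median log2 fold change was 0.05. UQCRH (chr1:46303631-46316776), the acidic hinge protein at the docking site of cytochrome c, read 103, 108 and 113 CPM with DMSO and 142, 148 and 158 CPM with doxorubicin. The groups were separate, the mean going from 108 ± 4.67 to 149 ± 8.01 CPM, with a log2 fold change of 0.47 ± 0.06 and an adjusted p of 9.2e-06. UQCRC1, a core protein on the matrix side, read 159, 157 and 167 CPM against 204, 193 and 204 CPM. It was higher in all 3 doxorubicin libraries (log2 fold change 0.32 ± 0.06, adjusted p = 0.00022). Its companion UQCRC2 read 149, 141 and 133 CPM against 148, 160 and 148 CPM, overlapping, and did not pass (log2 fold change 0.11, adjusted p = 0.15). UQCRB, a small subunit near a ubiquinone site, read 94.1, 93.9 and 85.9 CPM against 99.5, 106 and 122 CPM. It rose by 0.26 ± 0.08 on the log2 scale (adjusted p = 0.0074), and its call was lost without doxorubicin replicate 3 (0.0511).

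The subunits of complex III that carry the redox groups did not rise. CYC1, which holds haem c1, read 225, 253 and 256 CPM with DMSO and 222, 197 and 227 CPM with doxorubicin. The groups overlapped, with a log2 fold change of -0.18 ± 0.07 and an adjusted p of 0.032. UQCRFS1, the Rieske iron-sulfur protein, read 96.3, 96.0 and 90.3 CPM against 92.1, 87.9 and 90.6 CPM and did not pass (log2 fold change -0.06, adjusted p = 0.39). UQCR10, a small subunit next to them, read 68.3, 63.0 and 69.3 CPM against 52.5, 55.8 and 63.0 CPM, the highest doxorubicin value lying at the lowest DMSO value (log2 fold change -0.23 ± 0.08, adjusted p = 0.017). CYC1 lost its call without DMSO replicate 2 or 3 (adjusted p = 0.105 and 0.103), without doxorubicin replicate 2 (0.176) and with library totals (0.0782). UQCR10 lost it without doxorubicin replicate 1 or 2 (0.0627 and 0.0572). UQCRQ and UQCR11 did not pass. Per count of UQCR10 there were 1.51, 1.71 and 1.63 UQCRH counts with DMSO and 2.70, 2.65 and 2.50 with doxorubicin.

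UQCRHL, a copy of UQCRH elsewhere on chromosome 1, is uncertain because reads of the 2 could be split. It read 0.782, 0.885 and 1.27 CPM against 1.93, 1.16 and 2.02 CPM, with overlapping groups. Its log2 fold change was 0.79 ± 0.32 (adjusted p = 0.038). The UQCRHL call was lost without DMSO replicate 1 or 2 (adjusted p = 0.121 and 0.108) and without doxorubicin replicate 1 or 3 (0.101 and 0.138). It was also lost with DESeq2 (0.151) and without a filter on low counts (0.0557).

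Complex IV had 5 small rises (45.5%) and 1 clear fall (9.09%) among 11 tested members, with a median log2 fold change of 0.05. Among all tested genes 32.7% rose and 32% fell. COX5B (chr2:97646040-97648383), a zinc-binding subunit on the matrix side, read 89.6, 94.0 and 96.3 CPM with DMSO and 62.9, 64.8 and 72.3 CPM with doxorubicin. Every doxorubicin value was lower, the mean going from 93.3 ± 3.40 to 66.7 ± 4.97 CPM (SD, n = 3 each), 1.40-fold, with a log2 fold change of -0.48 ± 0.07 and an adjusted p of 1.4e-05. COX7B, a small membrane subunit, read 57.1, 51.9 and 56.7 CPM against 61.1, 67.0 and 73.8 CPM. It was higher in every doxorubicin library, by 0.29 ± 0.08 on the log2 scale (adjusted p = 0.0043). Per COX5B count there were 0.638, 0.551 and 0.589 COX7B counts with DMSO and 0.971, 1.03 and 1.02 with doxorubicin. COX4I1, the largest nuclear subunit, read 245, 240 and 250 CPM against 240, 246 and 277 CPM, with overlapping groups (log2 fold change 0.05, adjusted p = 0.49). COX5A, COX6C, COX7C and COX8A did not pass.

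The stretch upstream of COX5B is shown because this was the 1 member of complex IV that fell. It lies at chr2:97645812-97646039 on the plus strand of GRCh38.p14 and ends 22 bases before the RefSeq start. Capitals mark 4 GC boxes (GGGCGG or its reverse complement) and 1 ETS motif (CCGGAAG), which directly follows the last GC box without overlapping it.
COX5B: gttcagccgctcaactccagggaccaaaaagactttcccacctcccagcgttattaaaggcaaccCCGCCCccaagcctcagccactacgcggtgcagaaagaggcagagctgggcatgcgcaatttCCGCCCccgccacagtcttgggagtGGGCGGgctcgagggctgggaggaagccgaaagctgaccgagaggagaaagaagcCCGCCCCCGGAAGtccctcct

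The other 4 rises in complex IV were small. COX6A1, the widely expressed form of subunit 6A, read 46.3, 46.5 and 47.7 CPM with DMSO and 49.0, 53.9 and 61.2 CPM with doxorubicin. COX6B1, which lies near the cytochrome c site, read 81.9, 76.0 and 82.8 CPM against 89.2, 89.8 and 96.4 CPM. COX7A2, the widely expressed form of subunit 7A, read 68.7, 72.6 and 67.1 CPM against 73.0, 75.7 and 86.6 CPM. In each of these the groups were apart by a narrow margin. COX7A2L, known for joining complexes III and IV in supercomplexes, read 79.9, 79.3 and 76.2 CPM against 86.2, 86.3 and 94.1 CPM, also apart. The log2 fold changes were 0.22, 0.19, 0.17 and 0.18 for COX6A1, COX6B1, COX7A2 and COX7A2L, with adjusted p-values of 0.025, 0.016, 0.049 and 0.023. Without doxorubicin replicate 3 none of the 4 passed, with adjusted p-values of 0.145 for COX6A1, 0.0673 for COX6B1, 0.241 for COX7A2 and 0.0977 for COX7A2L. COX6A1 also lost its call without DMSO replicate 1 or 2 (0.0647 and 0.082), COX6B1 without DMSO replicate 2 (0.119), and COX7A2L without DMSO replicate 2 or 3 (0.0698 and 0.0766). COX7A2 also lost it without DMSO replicate 1, 2 or 3 (0.116, 0.0669 and 0.142), without doxorubicin replicate 2 (0.0559) and with the replicate number as a block (0.0603). With DESeq2, COX6A1 (0.0665), COX7A2 (0.125) and COX7A2L (0.0684) did not pass. Without a filter on low counts, COX6A1 (0.0531), COX6B1 (0.0744), COX7A2 (0.14) and COX7A2L (0.115) did not pass.

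Subunit forms known from muscle or testis were near or at 0 in both groups. COX6A2 and COX7B2 had 0 counts in all 6 libraries, which allows up to 0.0273 CPM at 3 counts over all libraries, for counting error alone. COX4I2, the lung-enriched form of subunit 4, had 0 counts with DMSO and 1 count in doxorubicin replicate 1. COX7A1, the muscle form of subunit 7A, held 6, 3 and 5 counts against 4, 4 and 5, and COX6B2, the testis form of 6B, held 1, 3 and 5 counts against 1, 3 and 6. None of these 5 could be tested. Counts of subunits 4, 6A, 6B, 7A and 7B came almost wholly from COX4I1, COX6A1, COX6B1, COX7A2, COX7A2L and COX7B in both groups.

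Complex V was the complex whose passing members all moved the same way: 8 of 18 tested members fell and 0 rose, where 32% of all tested genes fell and 32.7% rose. Its median log2 fold change was -0.13. The falls lay in the catalytic head, the rotor and the top of the stator. ATP5F1B (chr12:56638175-56646068), the beta subunit with the catalytic sites, read 804, 831 and 799 CPM with DMSO and 568, 596 and 609 CPM with doxorubicin. The groups were apart, with means of 811 ± 17.2 and 591 ± 21.0 CPM (SD, n = 3 each), a log2 fold change of -0.46 ± 0.06 and an adjusted p of 4.3e-06. ATP5F1A (chr18:46080248-46104334), the alpha subunit that alternates with beta in the head, read 402, 389 and 406 CPM against 276, 295 and 309 CPM. It was lower in every doxorubicin library, by a log2 fold change of -0.44 ± 0.06 (adjusted p = 9.8e-06). ATP5F1C (chr10:7788129-7807815), the gamma subunit that turns inside the head, read 138, 140 and 138 CPM against 77.4, 94.8 and 94.4 CPM. This was 1.56-fold lower (log2 fold change -0.64 ± 0.08, adjusted p = 1.4e-06). ATP5F1D, the delta subunit of the central stalk, read 99.9, 102 and 112 CPM against 77.6, 81.0 and 85.6 CPM (log2 fold change -0.36 ± 0.07, adjusted p = 0.0002). ATP5F1E, the epsilon subunit, was the 1 member of this part that did not pass. It read 122, 121 and 122 CPM with DMSO and spread from 103 over 119 to 152 CPM with doxorubicin (log2 fold change 0.03, adjusted p = 0.84).

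The 3 genes of the rotor ring all fell. ATP5MC1, ATP5MC2 and ATP5MC3 encode precursors with different import sequences that mature to the same c subunit. ATP5MC2 (chr12:53632726-53677408) read 142, 144 and 147 CPM with DMSO and 81.5, 87.3 and 97.8 CPM with doxorubicin. It had the largest fall of any tested member, 1.62-fold, with a log2 fold change of -0.70 ± 0.07 and an adjusted p of 2.4e-07. ATP5MC1 read 63.2, 68.2 and 69.8 CPM against 53.2, 53.9 and 57.6 CPM, and ATP5MC3 read 139, 142 and 141 CPM against 112, 110 and 125 CPM. Both had separate groups, with log2 fold changes of -0.29 and -0.28 and adjusted p-values of 0.0017 and 0.0011. Whether ATP5MC2 fell more than the other two was not tested.

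In the stator of complex V, 1 of 4 peripheral stalk members fell. ATP5PO, the protein that ties the stalk to the top of the head, read 25.6, 25.2 and 25.0 CPM with DMSO and 15.9, 20.8 and 21.2 CPM with doxorubicin. Its groups were separate (log2 fold change -0.39 ± 0.11, adjusted p = 0.0044), and 25.4% of its exon bases lie in other genes, the largest of which held 0 counts. ATP5PB, the long b subunit of the stalk, read 166, 174 and 166 CPM against 161, 168 and 177 CPM, with overlapping groups (log2 fold change 0.00, adjusted p = 0.98). ATP5PD and ATP5PF did not pass. None of the 5 small membrane subunits, ATP5ME, ATP5MF, ATP5MG, ATP5MJ and ATP5MK, passed. ATP5ME was the most variable, at 7.43, 7.45 and 8.78 CPM against 5.23, 8.18 and 14.3 CPM, and 61.6% of its exon bases lie in other genes. It passed upward without doxorubicin replicate 1 (adjusted p = 0.0373), ATP5MF passed downward without DMSO replicate 1 (0.0432), and ATP5MG passed upward with library totals (0.0416). ATP5IF1, the inhibitor that binds the head when the proton gradient collapses, read 93.2, 87.2 and 89.5 CPM against 89.3, 93.9 and 109 CPM and did not pass (adjusted p = 0.2), though it passed upward without doxorubicin replicate 1 (0.0443).

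Ratios within a library set ATP5F1B and ATP5F1C of the head against ATP5PB alone of the stalk, without any scaling between libraries. Per ATP5PB count there were 4.84, 4.79 and 4.80 ATP5F1B counts with DMSO and 3.52, 3.54 and 3.43 with doxorubicin. For ATP5F1C the ratio to ATP5PB was 0.830, 0.809 and 0.828 against 0.481, 0.563 and 0.533. In both ratios the groups were well apart. They hold for ATP5PB only, since ATP5PO of the stalk fell itself (log2 fold change -0.39), and ratios to it were not computed.

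The stretch upstream of ATP5F1C and its NRF1 match are shown because it was the head subunit with the largest fall. The stretch is chr10:7787982-7788128 on the plus strand of GRCh38.p14, ending 48 bases before the RefSeq start, with a GC box in capitals. The NRF1 match begins 22 bases before the start. It is printed with 5 bases on each side, which together span chr10:7788150-7788169.
ATP5F1C: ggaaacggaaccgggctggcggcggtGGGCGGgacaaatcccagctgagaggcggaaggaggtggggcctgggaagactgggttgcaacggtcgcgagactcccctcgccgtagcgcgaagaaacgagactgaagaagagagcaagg
ATP5F1C NRF1 match: cttcgGCGCATGCGCgctga

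**Figure D3:**
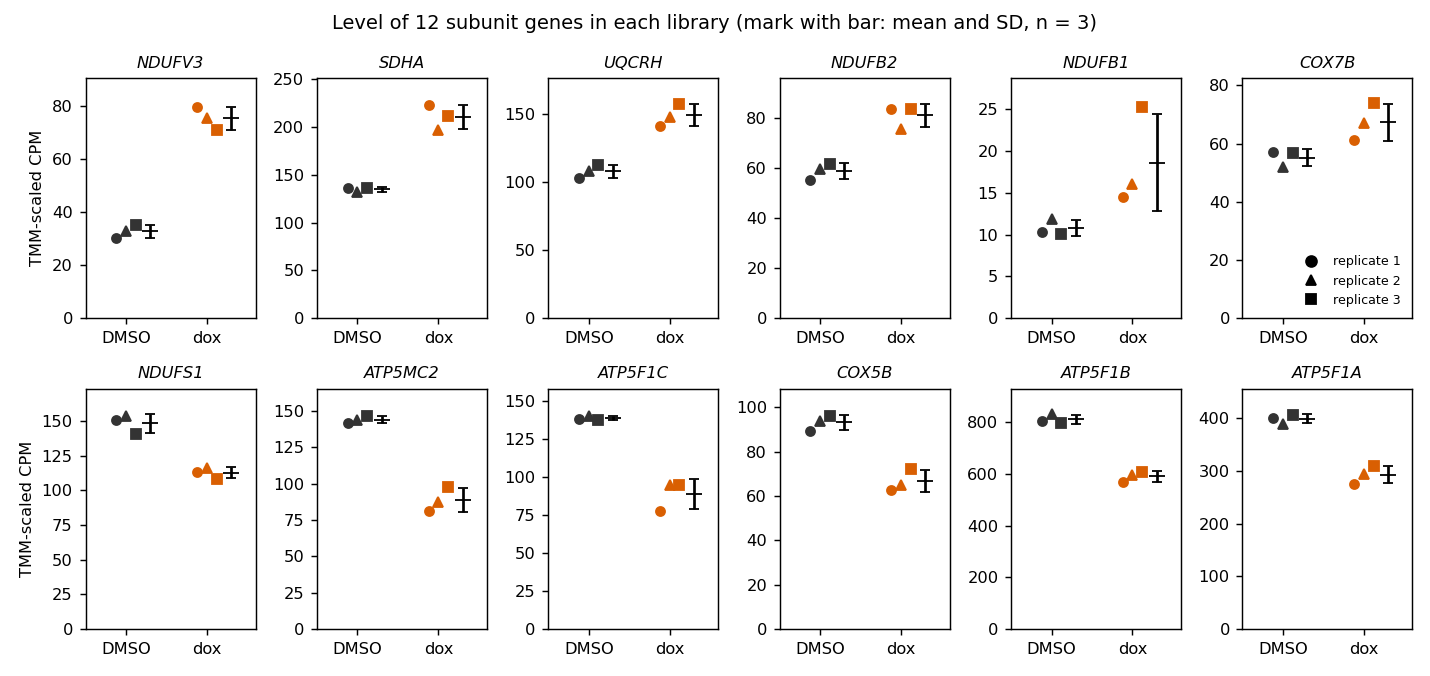
TMM-scaled CPM (vertical axis, from 0) in the DMSO and doxorubicin (dox) libraries for 12 members, each symbol a replicate and the bar beside it the mean and SD (n = 3). The 6 members of the upper row lie higher in every doxorubicin library and the 6 of the lower row lie lower.

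Promoter windows were available for 70 of the 90 members, as 83 windows, from RefSeq (GRCh38.p14). The NRF1 motif was in 19.3% of them, beside 9.48% of the windows of tested protein-coding genes and 5.78% of all 35116 windows. The ETS motif CCGGAAG was in 26.5%, beside 16.4% and 10.3%. The motif AAGATGGC of YY1 was in 15.7%, beside 4.56% and 2.89%, and the element AAGGTCA of the oestrogen-related receptors was in 14.5%, beside 2.69% and 3.92%. GC boxes (62.7%, beside 65.5% and 45%) and CCAAT (34.9%, beside 34.3% and 34.6%) were about as frequent in the tested protein-coding windows. Each motif was searched on both strands, and the shares are descriptions without a test.

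The members with an NRF1 match were found in both directions of change. They were 2 of 13 that rose, 6 of 14 that fell and 8 of 38 that did not pass, counting tested members with a window. The sites of members that fell are shown to set them beside those of SDHA, each with 5 bases on either side of the match.
NDUFB4 site 1: acttcGCGCATGCGCatatc
NDUFB4 site 2: ctaacGCGCAGGCGCacttc
NDUFB4 site 3: gaatcGCGCAGGCGCaattg
ATP5PO: aacgcGCGCGTGCGCccttg
NDUFA9: ggttaGCGCTTGCGCagaca
SDHD: tgtttGCGCATGCGCgacgg
UQCR10: ccccaGCGCAGGCGCggtgg
UQCRC1, the other member that rose with a match, reads as follows.
UQCRC1: gtactGCGCCTGCGCcgcga
The UQCRC1 match is the SDHA match GCGCAGGCGC read on the opposite strand. That form was thus present in members that rose (SDHA, UQCRC1) and in members that fell (NDUFB4, UQCR10).

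Levels of different genes were compared as transcripts-per-million (TPM), counts divided by exon length and scaled to the same total in every library. ATP5F1B was the most abundant member, at 1506 ± 41.2 TPM with DMSO (SD, n = 3) and 1124 ± 34.7 TPM with doxorubicin. With DMSO it was followed by NDUFS5 at 897.7 ± 21.7 TPM, COX8A at 867.3 ± 58.1 TPM and CYC1 at 533.5 ± 28.0 TPM, and NDUFS5 and COX8A lay within their spread of each other. The median over tested members with DMSO was 85.0 TPM in complex I, 64.1 in complex II, 165.6 in complex III, 187.2 in complex IV and 129.7 in complex V. SDHA stood below SDHB per length with DMSO, at 69.25 ± 2.07 against 138.7 ± 1.73 TPM. With doxorubicin they were at 110.9 ± 6.47 and 126.7 ± 9.74 TPM. The alpha subunit ATP5F1A, which joins beta in equal number, was at 157.6 TPM beside the 1506 of ATP5F1B, over summed exon lengths that can include rarely used exons.

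Summed over its members, complex V was lower in every doxorubicin library, with 3812, 3779 and 3744 TPM with DMSO and 2940, 3210 and 3356 TPM with doxorubicin. Complex II summed to 315, 296 and 296 TPM against 326, 328 and 334 TPM, and complex III to 1906, 1893 and 1939 TPM against 2000, 1999 and 2130 TPM. Both lay higher in all 3 doxorubicin libraries. Complex I gave 4584, 4516 and 4604 TPM against 4194, 4417 and 4754 TPM, and complex IV gave 2652, 2634 and 2737 TPM against 2721, 2810 and 2934 TPM. Both of these overlapped between the groups. All members together took 13270, 13117 and 13321 TPM against 12180, 12763 and 13507 TPM. The 3 libraries against 3 of a single sum allow no exact two-sided permutation p under 0.05, so these sums carry no test.

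**Figure D4:**
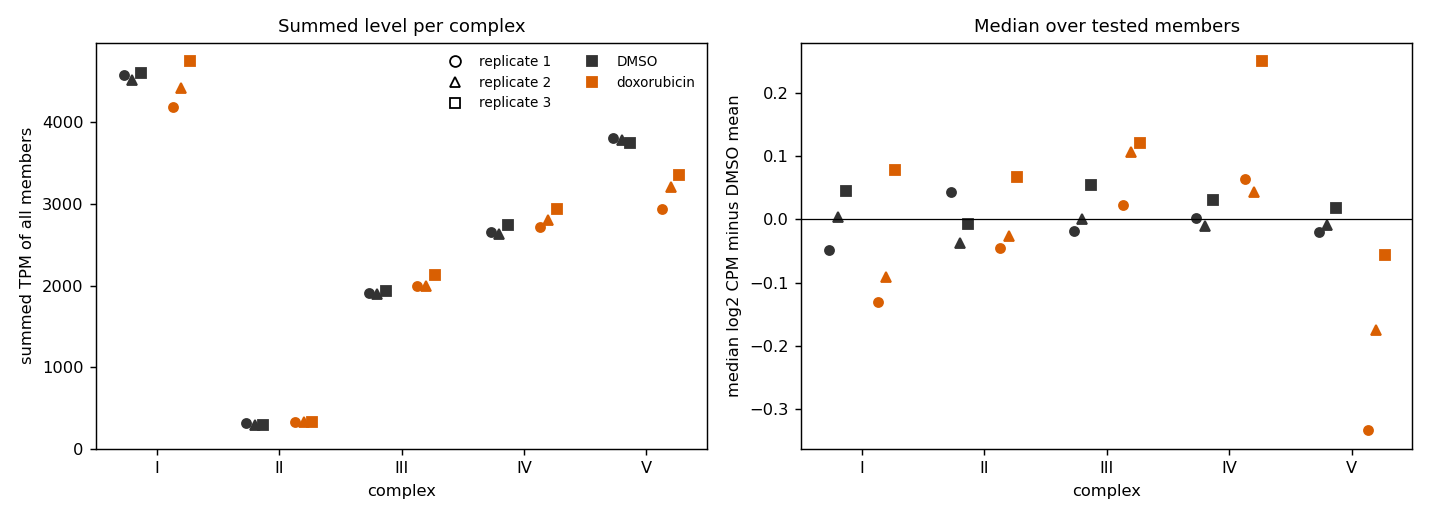
Left, summed TPM of the members of complexes I to V in the 6 libraries; right, the median over tested members of log2 CPM minus the DMSO mean; each symbol is a replicate. In both panels the doxorubicin points of complex V lie below all its DMSO points, and doxorubicin replicate 3 is the highest of its group in each complex.

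The doxorubicin libraries differed among themselves over these genes more than the DMSO libraries did. The median over tested members of the log2 CPM minus the DMSO mean was -0.14, -0.04 and 0.07 in doxorubicin replicates 1, 2 and 3, while the DMSO libraries lay between -0.02 and 0.03. For complex V it was -0.33, -0.18 and -0.06, and for complex IV 0.06, 0.04 and 0.25. Replicate 3 was the highest and replicate 1 the lowest over all members and in complex V. The members have short transcripts, with a median of 702.5 bases against 1867.5 for tested protein-coding genes. Among the 53 tested members under 800 bases, the median deviation from the group mean was -0.12, -0.02 and 0.12 in doxorubicin replicates 1 to 3. Over all 1822 tested protein-coding genes under 800 bases it was -0.01, 0.00 and 0.01.

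For want of counts, 9 members did not pass the filter and were not tested. NDUFV2, the iron-sulfur partner of NDUFV1 and the only core subunit among them, held 7, 15 and 16 counts with DMSO and 9, 10 and 9 with doxorubicin. By exon positions, 28.4% of NDUFV2 lies in other genes, and its pseudogene NDUFV2P1 held more counts than the gene itself, 89, 103 and 82 against 53, 65 and 66. The low NDUFV2 counts are therefore uncertain as a measure of the gene. ATP5MGL and the readthrough gene NDUFC2-KCTD14 had 0 counts throughout, and the readthrough gene ATP5MF-PTCD1 held 0, 2 and 0 counts against 3, 1 and 1. The remaining 5 are the complex IV forms COX4I2, COX6A2, COX6B2, COX7A1 and COX7B2. NDUFA7 was tested at only 6, 10 and 13 counts against 11, 17 and 11, with 33.5% of its exon bases in other genes. Symbols of the same families that are not protein-coding numbered 195, of which 123 had 0 counts, and together they held 4575 counts.

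Genes that work beside the subunits also moved in both directions. Their counts below stand beside 32.7% higher and 32% lower among all tested genes. The 4 assembly factors of complex II all rose, where the complex itself had 1 member higher and 1 lower. SDHAF4 (log2 fold change 0.91, adjusted p = 0.00041) and SDHAF1 (0.65, 5.2e-05) rose most, then SDHAF3 (0.39, 0.01) and SDHAF2 (0.34, 0.0076), which inserts the flavin into SDHA. SDHAF4 and SDHAF1 are known for chaperoning SDHA after flavin insertion and for the iron-sulfur clusters of SDHB. Of 18 tested assembly factors of complex I, 4 rose (22.2%) and 7 fell (38.9%), and their median log2 fold change was -0.19. NDUFAF8 rose (34.7 ± 3.56 against 63.3 ± 5.74 CPM, log2 fold change 0.86, adjusted p = 3.1e-07), and DMAC2 fell from 66.8 to 41.6 CPM (-0.68, 4.4e-07). Of 6 for complex III, 2 rose and 3 fell (median -0.27), with UQCC1 at 0.43 (3.7e-05) and BCS1L, which inserts the Rieske protein, at -0.58 (1.4e-05).

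Of 23 tested assembly factors of complex IV, 6 rose and 4 fell, and their median log2 fold change was -0.02. SURF1, known from Leigh syndrome, rose (24.9 ± 0.45 against 41.7 ± 1.44 CPM, log2 fold change 0.74, adjusted p = 3.5e-07), and COX18, which inserts a mitochondrially encoded subunit, fell by 0.81 on the log2 scale (6.4e-05). For complex V, ATPAF1, the chaperone of the beta subunit, fell from 52.9 ± 2.91 to 30.7 ± 2.77 CPM (-0.78, 4.7e-07), while 0 of the 4 tested factors rose. The lists' medians stand beside 0.00 for all tested genes, and no list was tested as a whole.

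Mobile carriers and neighbouring pathways were measured with the same fit. Among 13 genes of ubiquinone synthesis, 3 rose and 6 fell. COQ8A, an atypical kinase-like protein of that pathway, rose (27.8 ± 2.86 against 119 ± 11.5 CPM, log2 fold change 2.10 ± 0.09, adjusted p = 8e-12), and COQ7, which hydroxylates the ring, fell from 26.3 ± 2.11 to 12 ± 0.569 CPM (-1.13, 5.1e-08). Of 7 tested electron carriers and ubiquinone-linked dehydrogenases, 2 rose and 2 fell. Cytochrome c itself (CYCS) rose from 162 ± 5.43 to 214 ± 5.72 CPM (0.40, 2e-05), and ETFDH, which passes electrons from fatty acid oxidation to ubiquinone, fell by 0.84 on the log2 scale (3.7e-06). In the citric acid cycle outside complex II, 1 of 14 rose and 8 fell, with a median of -0.25. MDH2 rose from 206 to 284 CPM (0.46, 5.6e-06) and CS, the citrate synthase, fell from 237 ± 9.11 to 119 ± 7.51 CPM (-0.99, 1.5e-09). Of 78 mitochondrial ribosomal proteins, which translate the mitochondrially encoded subunits, 17 rose (21.8%) and 39 fell (50%), beside 32.7% and 32% of all tested genes, with a median of -0.20. MRPL49 had the largest rise (1.11, 5e-10) and MRPS28 the largest fall (-0.83, 0.00022).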

How the data were processed

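The authors deposited a table of raw counts per gene, 1 column per library, with exon positions and a summed exon length as another column, laid out as featureCounts writes it (per the file headers). GRCh38 (hg38) and the tools STAR, SAMtools, Subread and featureCounts are listed by the submitters' processing notes. The sources used here do not give the handling of read pairs or of overlapping genes. Symbols came from a name table (57717 of 58299 IDs), and gene types and transcript lengths from GENCODE 29 (58179 IDs). There were 0 columns of other samples.

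Counts were tested in edgeR 4.0.16 (R 4.3.3): filterByExpr (minimum count 10, total 15), TMM scaling, the robust quasi-likelihood F test of doxorubicin against DMSO without covariates, two-sided, and Benjamini-Hochberg adjustment over 15358 genes, with calls at 0.05. Each SE is the absolute log2 fold change over the root of its F value. The fit was checked on simulated data. Libraries of one group differed beyond sampling noise (chi-square over its degrees of freedom 2.82 to 9.39), and each was treated as 1 replicate. Such a spread does not show that they were independent cultures. Totals of 17252862 to 19571731 counts set the precision.

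The members and lists were chosen with earlier results of these data known. Named with values in each library are up to 4 members called in each direction per complex, all of complex II, the catalytic and redox subunits, the isoform families, ATP5IF1 and members under the filter, and from each list the called gene with the largest change each way. One member is counted in the totals and not reported here by name. Other genes were named after their values were seen, and structural parts of the complexes were assigned from textbook knowledge. Promoter windows (250 bases before to 50 after the start) came from RefSeq on GRCh38.p14. Alternatives were DESeq2 1.42.0, other scalings, filters and gene sets, glmTreat, a replicate block and each library left out.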

Additional observations from a re-analysis of the deposited data

How the results depend on the processing

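The overall counts of 16 members higher and 20 lower became 17 and 20 with RLE size factors and 18 and 20 with upper-quartile scaling. They were 19 and 16 with library totals alone. A filter of 1 CPM in 3 libraries gave 18 and 20, and no filter gave 12 and 22. With DESeq2 they were 11 and 17, beside 22.5% higher and 20% lower among the 22454 genes with an adjusted p. A stricter definition of members gave 14 and 20. For the other scalings and filters, shares over all genes were not computed. Against a 1.2-fold change (glmTreat) 8 members were higher and 7 lower, beside 25.5% and 22.5% of all tested genes. Leaving out members with over 10% of exon bases in other genes left 12 higher and 15 lower, out of fewer tested members. In complex I, 3 were then higher and 5 lower, and in complex II 0 were lower. The medians were then 0.13, 0.18 and -0.29 in complexes II, III and V. Leaving out members with transcripts under 800 bases, an alternative chosen after seeing the data, left 7 higher and 10 lower. Of the 53 tested members under 800 bases, 9 rose and 10 fell. Among all tested protein-coding genes of that length, 66.2% passed in either direction. From 800 to under 1500 bases, 3 of 17 members rose and 8 fell, beside 68.5%. From 1500 to under 3000 bases, 3 of 9 rose and 2 fell, beside 68.9%. From 3000 bases, 1 of 2 rose and 0 fell, beside 71%. In complex II, 2 members were higher with upper-quartile scaling, library totals or the 1 CPM filter, 0 were lower with library totals or DESeq2, and 2 were lower without a filter. Library totals gave 1 lower member in complex III and 1 higher in complex V. In complex IV, 2 members were higher with DESeq2 and 1 without a filter. Scaling moved the median of all genes by at most 0.04 (log2). For libraries left out, the share of all genes was computed only without doxorubicin replicate 3, at 30.7% higher and 28.7% lower. Leaving out 1 library at a time gave 9 to 19 members higher and 15 to 23 lower. By complex the ranges were 5 to 11 lower in complex I, 0 to 1 lower in II, 2 to 4 higher and 0 to 2 lower in III, 1 to 5 higher in IV, and 0 to 2 higher and 8 to 9 lower in V, with 2 higher in V without doxorubicin replicate 1. Apart from fewer genes or samples where the alternative itself removes them, the cause of these moves was not tested. Single members were followed over 13 alternatives: the scalings, the filters, DESeq2, the replicate block and each library left out. Neither glmTreat nor the changed gene sets were among them. In every one of the 13, 9 of the 16 rises and 14 of the 20 falls were called, among them all 8 falls in complex V. Of the calls, 0 reversed. With the replicate number as a replicate block, 16 members were higher and 20 lower, with COX7A2 no longer called and NDUFS6 called instead. Deviations of same-numbered libraries correlated at 0.0515, -0.0231 and 0.027, and those of differently numbered libraries at -0.0721 to 0.0584. Such values cannot show whether the samples were paired, and the main test assumed no pairing. Members at the count floor could not be tested at this depth.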
